A study of Homo sapiens with 8 samples.

Results

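The genes PIP, TFF1, MUC5B, OLFM4, S100A7, ORM1, ORM2 and CGA encode secreted proteins of luminal breast, apocrine gland and mucosal epithelium, and these 8 genes are followed here across knockouts of mir-141 and mir-200c. They were chosen by symbol from a table of 9245 RefSeq mRNA entries with 9241 distinct symbols, in the knowledge of their ratios in the first of 2 experimental sets. All 8 were found, each with 1 entry. The cells were SK-BR-3, a cell line from a human breast carcinoma in which the receptor gene ERBB2 is amplified. TALENs, engineered nucleases that work in pairs at a site set by their design, had been used to knock out mir-141, mir-200c or both. Messenger RNA was sequenced from 8 libraries in 4 groups, which were mir-141 knockout (KO), mir-200c KO, double KO and wild type, with 2 libraries per group and 1 of them in each set. Each knockout library was a single clone. Set 1 held clone 23 (mir-141 KO), clone 11 (mir-200c KO), clone 55 (double KO) and a wild type, and set 2 held clone 10 (mir-141 KO), clone 29 (mir-200c KO), clone 61 (double KO) and a second wild type.

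The deposited values are log2 ratios of knockout clone over the wild-type library sequenced in that set, so a ratio of 1 is a doubling and wild type stands at 0. They hold neither expression levels nor library depth, and a gene with few reads cannot be told from one with many. Within a set the 3 clones share 1 wild type, so a deviation of that wild type enters all 3 ratios alike. Clone and set cannot be told apart within a group, and p-values below measure only the spread between these samples.

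These proteins leave the cell through the endoplasmic reticulum and Golgi apparatus, apart from S100A7, which lacks a classical signal peptide. PIP, the prolactin-induced protein of apocrine glands, is a classical target of the androgen receptor, and TFF1, a trefoil peptide that associates with mucus, is a classical target of the oestrogen receptor. MUC5B is a gel-forming mucin, OLFM4 is a glycoprotein known from intestinal crypts and neutrophils, and S100A7 (psoriasin) is an antimicrobial calcium-binding protein of stressed epithelium. ORM1 and ORM2 encode the acute phase protein alpha-1-acid glycoprotein, made mostly by liver. CGA encodes the alpha subunit shared by the pituitary and placental glycoprotein hormones. The mir-200 family, to which both microRNAs belong, is known for holding down ZEB1 and ZEB2, repressors of epithelial genes that bind E-boxes of the letters CACCTG.

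The mature microRNAs are printed because the comparison turns on which of them was lost, and capitals mark the seed, bases 2 to 8 from the 5′ end (RefSeq, GRCh38.p14).
hsa-miR-141-3p: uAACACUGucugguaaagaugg
hsa-miR-200c-3p: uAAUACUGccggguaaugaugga
The sequence of miR-141-3p lies at chr12:6964155-6964176 and that of miR-200c-3p at chr12:6963742-6963764, both on the plus strand with starts 413 bases apart. Their seeds differ at 1 position. Letters that pair with the whole seed (CAGTGTT for mir-141, CAGTATT for mir-200c) were looked for on the transcribed strand of the 3′ UTR of each gene's transcript in GENCODE 29. Neither occurred in any of the 8 genes. Among 8921 transcripts searched the same way, 18.1% held the mir-141 letters, 16.2% held the mir-200c letters and 5.86% held both. The 3′ UTRs of the 8 genes ran from 62 bases (S100A7) to 1286 bases (OLFM4), with PIP at 104 and ORM1 and ORM2 at 118. A short stretch holds given letters less often, and these shares were not matched for length. A missing match says only that these letters are not in the annotated stretch.

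Before any value of set 2 is read, the order of its rows matters. Read as listed, the ratios of one set said nothing about the other: across 9245 entries Pearson's r between the sets was 0.01 for the mir-141 KO, 0.01 for the mir-200c KO and 0.002 for the double KO. In each of 18 windows of 500 rows, the correlation between the sets was highest when set 2 was read some rows away from set 1. The best shift ranged from -13 to 13 rows, was never 0, and gave Spearman's rho between 0.0973 and 0.266. Each is the highest of all shifts up to 60 rows each way. A best shift other than 0 with a rho above 0 is thus likely in unrelated columns too. Genes that neighbour each other on a chromosome had weakly similar ratios in set 1 (rho 0.0934, 0.0728 and 0.11 for the mir-141 KO, the mir-200c KO and the double KO over 8983 neighbouring pairs). In set 2 as listed the same rho was -0.00133, 0.014 and 0.00162. By this measure the symbols in the table go with the ratios of set 1, and the ratios of set 2 stand some rows away from their symbols.

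**Figure D1:**
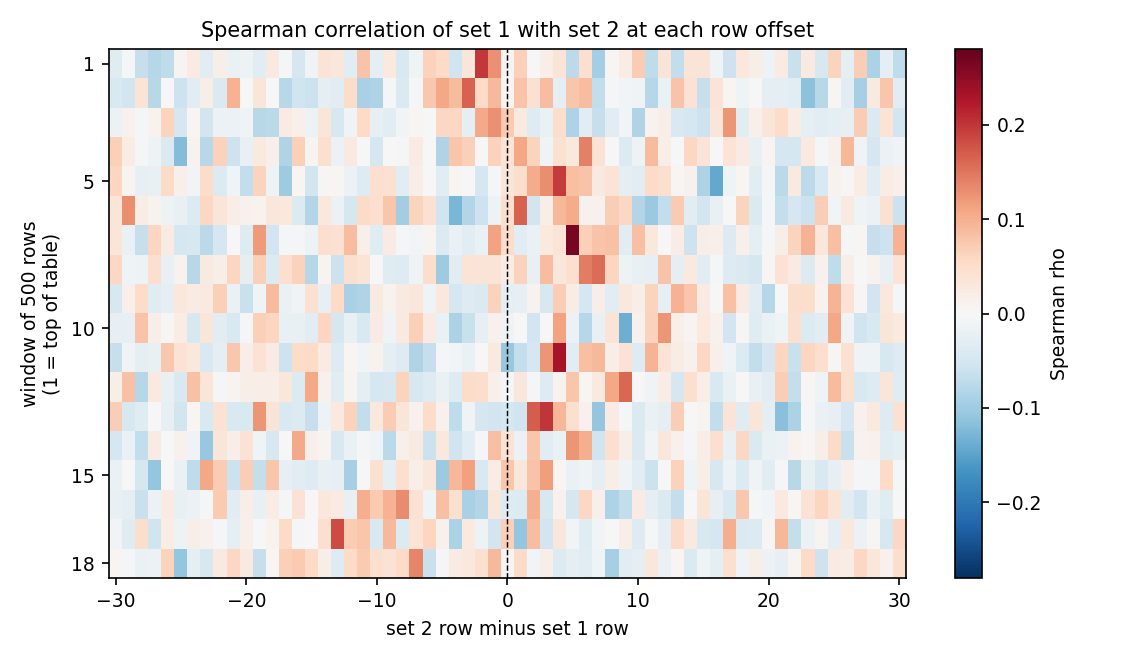
Spearman's rho between the ratios of set 1 and set 2 (colour) in 18 successive windows of 500 table rows (vertical axis, top of the table first), with set 2 read at each row offset (horizontal axis, in rows). The darkest red cells lie between offsets of -13 and 13 and wander down the table, and none of the best offsets is at 0, the dashed line.

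For each entry a partner row in set 2 was therefore estimated with a row alignment (a pair hidden Markov model) that left out the entry's own set 1 ratios, so that its own ratios did not enter the choice. It gave each partner row a probability. With partner rows at a probability of 0.9 or more, 4712 entries were matched, and r between the sets was 0.177 for the mir-141 KO, 0.469 for the mir-200c KO and 0.478 for the double KO. Chromosome neighbours then had rho of 0.111, 0.0955 and 0.0836 in set 2 over all 8983 pairs. These values are given as "aligned" below, beside those "listed" under the symbol. The aligned row is an estimate, it stands in the table beside another symbol, and it may be off by a row where an entry is missing from one set. For PIP, OLFM4, S100A7 and CGA the probability was 0.966 to 0.994, for TFF1 and ORM1 it was 0.728 and 0.69, and for MUC5B and ORM2 it was only 0.522 and 0.499.

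In set 1 the 8 genes split by which loss they followed. CGA and S100A7 stood high in both clones without mir-141 and near or below wild type in the mir-200c KO. OLFM4 was high and MUC5B low with either loss, and both went further in the double KO. PIP was high to the same degree in all 3 clones. ORM1 and ORM2 were low in both single knockouts and less so in the double KO, and TFF1 was low in the mir-200c KO alone. A microRNA loss was taken as followed where the change was 1 or more (log2) in the same direction in both backgrounds, that is in wild type and in cells already lacking the other microRNA. By that rule 4 of the 8 genes followed loss of mir-141 (0.27% of all entries did) and 2 followed loss of mir-200c (0.206% of all entries), both of which followed mir-141 too (0.0541% of all entries). CGA and S100A7 followed mir-141 only (0.216% of all entries), and 0 genes followed mir-200c only (0.151%). These shares are printed as description, since the set 1 ratios chose the genes.

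**Figure D2:**
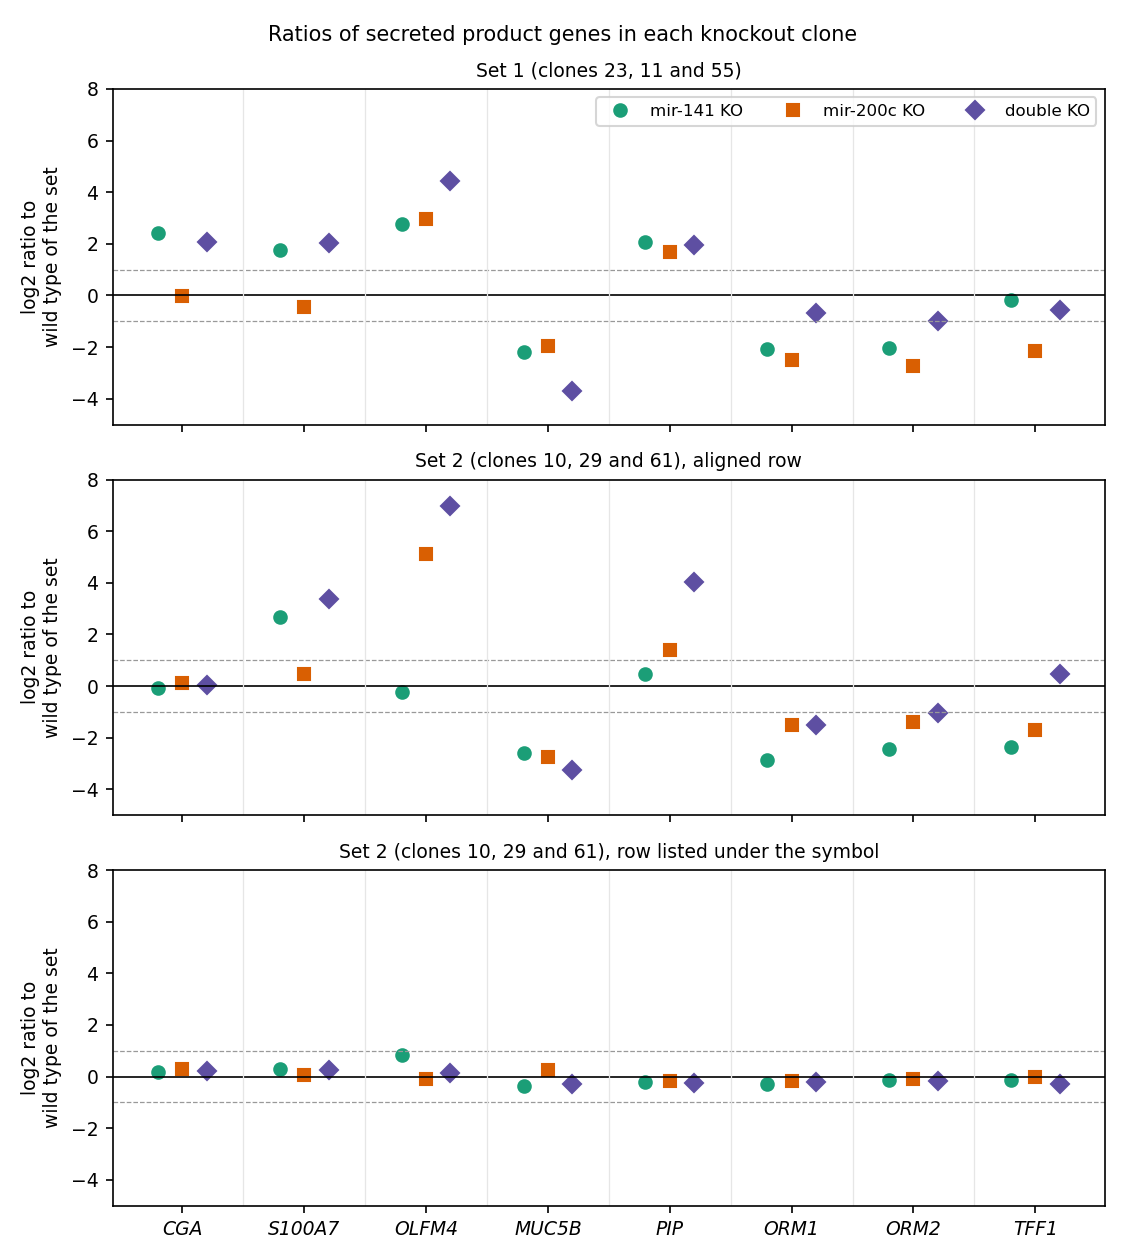
Log2 ratio of the knockout clones to wild type within the set (vertical axes) for the 8 genes, as circles (mir-141 KO), squares (mir-200c KO) and diamonds (double KO), in set 1, in set 2 at the aligned row and in set 2 as listed; dashed lines mark ratios of 1 and -1. OLFM4 reaches 6.97 and MUC5B -3.25 in the double KO at the aligned rows, while every listed ratio of set 2 lies between -0.37 and 0.83.

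CGA, the hormone alpha subunit (chr6:87085498-87095406 on GRCh38, minus strand), had log2 ratios of 2.41 in the mir-141 KO, -0.01 in the mir-200c KO and 2.06 in the double KO of set 1. Both clones lacking mir-141 were thus high, 5.32-fold and 4.18-fold above wild type, and the clone that kept it was level with wild type. Its mir-141 KO ratio was the sixth highest of all entries. The change with loss of mir-141 was 2.07 in the mir-200c KO and 2.41 in wild type, while loss of mir-200c gave -0.35 in the mir-141 KO and -0.01 in wild type. At the aligned row of set 2 the ratios of CGA were -0.08, 0.11 and 0.03 in the mir-141 KO, the mir-200c KO and the double KO, and at the listed row 0.17, 0.31 and 0.21. On neither reading was CGA high in clones 10 or 61.

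S100A7, the antimicrobial psoriasin (chr1:153457744-153460701, minus strand), showed the same split in set 1, with ratios of 1.75 in the mir-141 KO, -0.43 in the mir-200c KO and 2.05 in the double KO. Loss of mir-141 changed it by 2.48 in the mir-200c KO and 1.75 in wild type. The aligned row of set 2 had 2.68 in the mir-141 KO, 0.47 in the mir-200c KO and 3.39 in the double KO, which again put both clones lacking mir-141 high, 6.39-fold and 10.5-fold above wild type. There loss of mir-141 changed it by 2.92 in the mir-200c KO and 2.68 in wild type, and loss of mir-200c by 0.71 in the mir-141 KO and 0.47 in wild type. The listed row had 0.29, 0.05 and 0.26. Of the 4 genes that followed loss of mir-141 in set 1, S100A7 was the 1 gene that met the same rule at its aligned row. Of the stretches of 70 bases in its transcript, 6.1% also occur in S100A7A, so a small part of its reads could belong to that copy.

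The promoters of CGA and S100A7, from 250 bases before to 50 after the gene start (RefSeq, GRCh38.p14, minus strand), are shown because these are the genes that went with mir-141 alone in set 1. Capitals mark the cyclic AMP response element TGACGTCA and E-boxes of the letters CACCTG or, on the other strand, CAGGTG.
CGA, chr6:87095057-87095356: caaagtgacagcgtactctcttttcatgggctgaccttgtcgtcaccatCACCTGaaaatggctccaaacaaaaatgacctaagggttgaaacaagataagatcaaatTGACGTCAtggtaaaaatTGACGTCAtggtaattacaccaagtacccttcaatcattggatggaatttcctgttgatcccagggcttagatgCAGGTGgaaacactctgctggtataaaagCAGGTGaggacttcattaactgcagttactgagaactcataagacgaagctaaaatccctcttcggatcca
S100A7, chr1:153460602-153460901: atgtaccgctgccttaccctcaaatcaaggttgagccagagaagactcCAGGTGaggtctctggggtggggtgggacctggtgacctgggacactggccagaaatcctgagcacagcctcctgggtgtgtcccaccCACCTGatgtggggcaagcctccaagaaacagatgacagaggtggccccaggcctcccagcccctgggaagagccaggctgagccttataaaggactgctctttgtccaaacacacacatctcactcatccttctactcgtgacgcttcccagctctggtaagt
Positions count from the RefSeq start, which lies 300 bases inside the gene bounds given above for CGA and 50 bases inside them for S100A7, where GENCODE places the start further upstream. CGA held 2 response elements, which begin 142 and 124 bases before the start, and 3 E-boxes at 201, 50 and 21 bases before it. The last of these lies close to the letters TATAAA. S100A7 held 2 E-boxes at 202 and 114 bases before its start and no response element. Of 35116 RefSeq promoters of the same length, 1.85% held TGACGTCA, 20.6% an E-box and 11.5% TATAAA on either strand. Of the other genes with an entry, PIP held 1 E-box and OLFM4 and ORM1 none. These are matches of letters, and binding was not measured.

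OLFM4, the crypt glycoprotein (chr13:53028759-53052057, plus strand), had the largest ratios of the 8 genes. In set 1 they were 2.76 in the mir-141 KO, 2.98 in the mir-200c KO and 4.43 in the double KO, that is 6.77-fold, 7.9-fold and 21.5-fold above wild type. Loss of mir-141 changed it by 1.44 in the mir-200c KO and 2.76 in wild type, and loss of mir-200c by 1.67 in the mir-141 KO and 2.98 in wild type. The double KO minus the sum of the 2 single ratios was -1.31 on the log2 scale. The aligned row of set 2 read differently: -0.22 in the mir-141 KO, 5.12 in the mir-200c KO and 6.97 in the double KO. The values in the mir-200c and double KO there were the highest of all entries in their columns, and loss of mir-200c changed the gene by 7.19 in the mir-141 KO and 5.12 in wild type. So both clones lacking mir-200c were high in each set, while the mir-141 KO was high in clone 23 and not in clone 10. As listed, set 2 had 0.83, -0.09 and 0.16.

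MUC5B, the gel-forming mucin (chr11:1223066-1262172, plus strand), ran the other way. Its ratios in set 1 were -2.19 in the mir-141 KO, -1.98 in the mir-200c KO and -3.72 in the double KO, and the last was the second lowest of all entries in the double KO. Expressed as folds, it was 4.57-fold, 3.93-fold and 13.1-fold lower than in wild type. Loss of mir-141 changed it by -1.74 in the mir-200c KO and -2.19 in wild type, and loss of mir-200c by -1.52 in the mir-141 KO and -1.98 in wild type. At its aligned row the ratios of set 2 were -2.59, -2.76 and -3.25 in the mir-141 KO, the mir-200c KO and the double KO, so all 6 clones stood low. The second loss added less there, with -0.49 for loss of mir-141 in the mir-200c KO and -0.66 for loss of mir-200c in the mir-141 KO. The probability of that row was 0.522, and the listed row had -0.37, 0.25 and -0.28. In RNA from whole cultures, fewer cells making a transcript and less transcript per cell cannot be told apart.

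PIP (chr7:143132077-143139746, plus strand) had ratios of 2.07 in the mir-141 KO, 1.69 in the mir-200c KO and 1.95 in the double KO of set 1, a span of 0.39 over the 3 clones. All 3 were high by nearly the same amount, and each is a ratio to the same wild-type library. Adding a second loss changed it little, by 0.26 for mir-141 in the mir-200c KO and by -0.13 for mir-200c in the mir-141 KO. In all 3 clones of set 1, 3 of the 8 genes were past 1 in size in the same direction (PIP, OLFM4 and MUC5B), against 0.487% of all entries. At the aligned row of set 2, PIP had 0.48 in the mir-141 KO, 1.41 in the mir-200c KO and 4.03 in the double KO, with the double KO second only to OLFM4 among all entries. The 3 clones differed there by up to 3.55, and loss of mir-200c was followed in both backgrounds (3.55 in the mir-141 KO and 1.41 in wild type). The listed row had -0.21, -0.16 and -0.26.

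The orosomucoid genes ORM1 (chr9:114323056-114326475) and ORM2 (chr9:114329869-114333252) lie 3394 bases apart on the plus strand. Of 606 aligned coding bases 575 were identical, or 94.9%, with the longest identical run at 206 bases. Of their stretches of 70 bases, 40.5% of those of ORM1 occur in ORM2 and 43% of those of ORM2 occur in ORM1. The library fragments were about that long, so reads could be split between the copies, their ratios are uncertain one by one, and they do not count as separate evidence.

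ORM1 had ratios of -2.06 in the mir-141 KO, -2.50 in the mir-200c KO and -0.66 in the double KO of set 1. ORM2 had -2.02, -2.75 and -0.997 in the same order. Both single knockouts were thus 4.05-fold to 6.72-fold below wild type, and the double KO was 1.58-fold (ORM1) and 2-fold (ORM2) below it. The second loss went against the first: for ORM1 loss of mir-141 changed the ratio by 1.84 in the mir-200c KO and by -2.06 in wild type, and loss of mir-200c by 1.40 in the mir-141 KO and by -2.50 in wild type. Changes past 1 in opposite directions in the 2 backgrounds were seen in 0.0865% of all entries for mir-141 and 0.0757% for mir-200c. At the aligned rows of set 2 ORM1 had -2.88, -1.52 and -1.51 in the mir-141 KO, the mir-200c KO and the double KO, and ORM2 had -2.43, -1.40 and -1.04. Every clone was low on that reading, and the mir-141 KO was lowest in set 2 where the mir-200c KO was lowest in set 1. The listed rows lay between -0.30 and -0.09.

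TFF1, the oestrogen-regulated trefoil peptide (chr21:42362282-42366594, minus strand), was low in 1 clone of set 1. Its ratios were -0.18 in the mir-141 KO, -2.17 in the mir-200c KO and -0.55 in the double KO. Clone 11 was 4.49-fold below wild type, while clone 55, which also lacked mir-200c, was 1.46-fold below it. Loss of mir-200c therefore changed TFF1 by -0.37 in the mir-141 KO and -2.17 in wild type, which is short of the rule. The aligned row of set 2 had -2.35, -1.71 and 0.46 in the mir-141 KO, the mir-200c KO and the double KO, so both single knockouts were low and the double KO was not. The listed row had -0.13, -0.02 and -0.28. TFF3, a second trefoil gene 46.6 kb away, had 0.44, -0.26 and -0.25 in set 1 in the same order. Its aligned row in set 2 (probability 0.95) had -3.35, -0.99 and -0.20, lowest in the mir-141 KO as for TFF1.

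**Figure D3:**
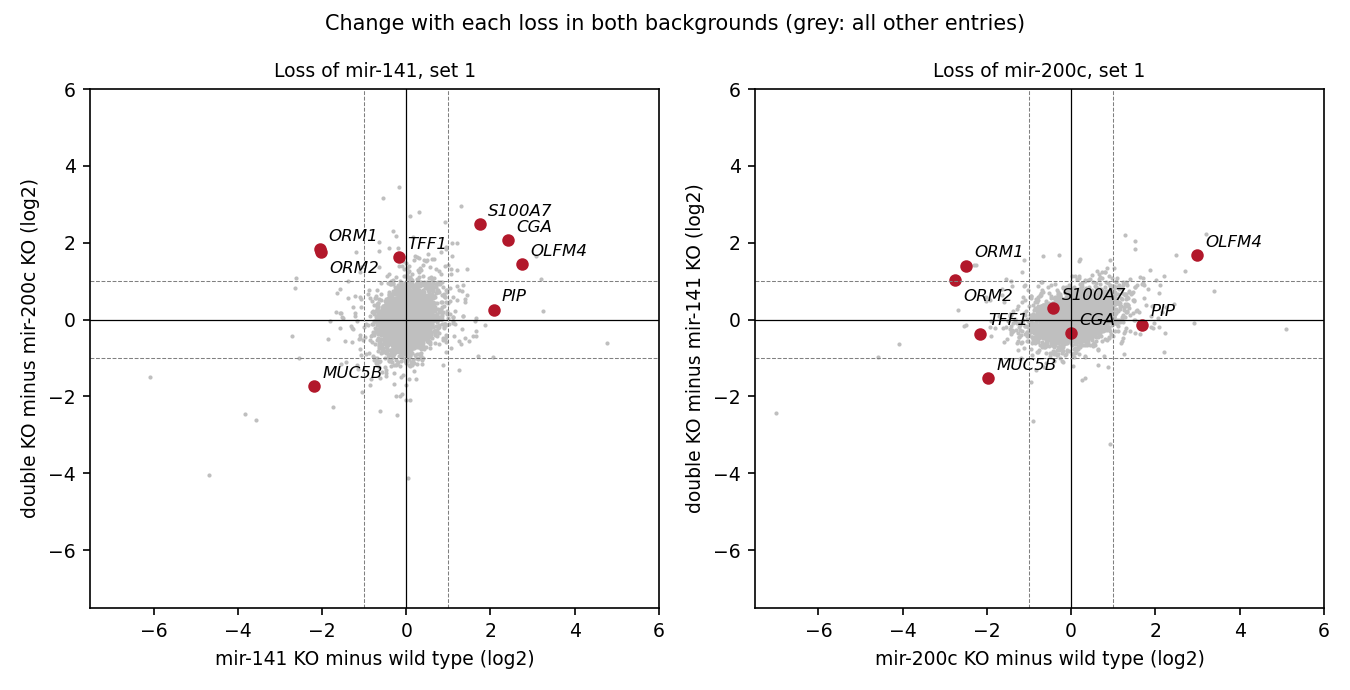
Change with loss of mir-141 (left) and of mir-200c (right) in set 1, in log2 units, in wild type (horizontal axes) and in cells lacking the other microRNA (vertical axes), for the 8 genes (red, named) and all other entries (grey); dashed lines mark 1 and -1. S100A7, CGA and OLFM4 lie upper right and MUC5B lower left for mir-141, OLFM4 and MUC5B do so for mir-200c, and ORM1 and ORM2 lie upper left in both panels.

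By clone in set 1, 7 of the 8 genes were past 1 in size in the mir-141 KO (1.15% of all entries), 6 in the mir-200c KO (2.76%) and 5 in the double KO (2.27%). In set 2 as listed 0 of the 8 were past 1 in any clone, where 2.48%, 1.77% and 3.34% of all entries were past 1 in the mir-141 KO, the mir-200c KO and the double KO. By the same reading 0 of the 8 followed loss of mir-141 (0.411% of all entries) or of mir-200c (0.303%). Listed ratios of set 2 stand some rows away from their symbols, so these counts say little about the 8 genes themselves. The ratios of set 2 had no part in choosing the genes, so they could be tested. An additive model of both losses was fitted with limma to the 4 libraries of set 2 over all entries, with 1 residual degree of freedom. For a given gene that residual is the double KO minus the sum of the 2 single ratios. The SEs and p-values of this fit, moderated across entries, thus reflect departure from additivity and no spread between clones of a group. At a Benjamini-Hochberg adjusted p under 0.05 it called 0 entries for either loss, with 770 (mir-141) and 1012 (mir-200c) under an unadjusted p of 0.05, and the share called was 0% for both. The listed rows of the 8 genes had effects between -0.45 and 0.54 for mir-141 and between -0.38 and 0.17 for mir-200c, none of them called.

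At the aligned rows the limma effect of losing mir-141 on S100A7 was 2.80 ± 0.124 (SE, adjusted p = 0.235), which equalled the smallest adjusted p of all entries for that loss. The limma effect of losing mir-200c on OLFM4 was 6.16 ± 0.56 (SE, adjusted p = 0.434). For PIP it was 2.48 ± 0.58 for mir-200c and 1.55 ± 0.58 for mir-141 (SE, limma adjusted p = 0.44 and 0.571). MUC5B had -1.54 ± 0.57 for mir-141 and -1.71 ± 0.57 for mir-200c (SE, limma adjusted p = 0.571 and 0.455). ORM1, ORM2 and TFF1, whose 2 backgrounds went opposite ways, had effects from -1.44 to 0.55 with SEs of 0.75 to 1.21. CGA had -0.08 ± 0.11 for mir-141 and 0.11 ± 0.11 for mir-200c. None of these passed the threshold. Over both sets, with the set as a block, limma called 0 entries as listed (476 and 821 under an unadjusted p of 0.05 for mir-141 and mir-200c). As listed, that fit joined set 1 ratios to set 2 ratios that stand some rows away from their symbols. Its 0 calls therefore say nothing about whether the sets share changes. With set 2 aligned at a probability of 0.9 or more, 4 of the 8 genes entered. There limma called 2 of 4710 entries for mir-141 (0.0425%), of which S100A7 was 1. For mir-200c it called 30 (0.637%), none of them among the 4 genes. The call of S100A7 uses the set 1 ratios that chose the gene and is a description. It was lost in the fit without the block, which took the clone ratios as separate values with wild type fixed at 0. There 1 other entry (0.0212%) was called for mir-141 and 22 entries (0.467%) for mir-200c. At a probability of 0.5 or more, 7 of the 8 genes entered among 7968 entries. The calls were then 2 for mir-141 (0.0251%), again with S100A7, and 30 for mir-200c (0.377%), and without the block 1 (0.0126%) and 18 (0.226%), with 0 of the 7 genes.

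Entries with the most similar set 1 ratios were found by Euclidean distance over the 3 clones, the 3 nearest for each gene. ORM1 and ORM2 were nearest to each other at 0.42, followed by NCCRP1 at 0.80 from both. CGA was nearest to S100A7 at 0.79, and S100A7 had STAC2 (0.59), PLTP (0.73) and then CGA. OLFM4 was nearest to the histone gene HIST1H2AD at 0.44, with FAM86B2 at 1.37. PIP was nearest to TRAF6 (0.43), an adaptor of innate immune receptors, and TMF1 (0.50), and TFF1 to the transporter SLC16A5 (0.34). MUC5B had no near match, with SPDYC at 1.64 the closest. The 3 clones share 1 wild type and these are 3 numbers per gene, so the distances describe set 1 only. At aligned rows ORM1 and ORM2, which can share reads, were 0.66 apart, but the probabilities of those rows were only 0.69 and 0.499. HIST1H2AD (row probability 0.80) was 7.64 from OLFM4 and TRAF6 (0.953) was 3.98 from PIP. Distance from S100A7 was 2.59 for STAC2 and 4.36 for CGA.

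Other genes of the same kinds are set beside all entries, of which 1.15%, 2.76% and 2.27% were past 1 in size in the mir-141 KO, the mir-200c KO and the double KO of set 1. At those shares few or none of a short list would be past 1, so a count of 0 says little about a list. The lists were chosen with earlier results of these data known, so the counts below are a description and were not tested. Of 12 other measured luminal and oestrogen receptor genes (13 of the 20 listed were measured), 0 were past 1 in any clone, and their medians were -0.02, -0.04 and -0.16 in the mir-141 KO, the mir-200c KO and the double KO. The medians over all entries were -0.01, -0.02 and -0.03. XBP1, a factor of the unfolded protein response, had the lowest double KO ratio of that list at -0.59, and GATA3, a luminal transcription factor, had 0.54 in the mir-141 KO. Of 6 other mucus genes (8 of 27 measured) 0 were past 1 in set 1, with medians of 0.20, -0.09 and -0.02. The counts of 0 are for set 1 only. At aligned rows of set 2, TFF3, which is in both lists, had -3.35 in the mir-141 KO. MUC1 (probability 0.978) had -1.13, -1.18 and -0.91 there in the same order of clones. The rest of the mucus list lay between -0.65 (AGR2 in the mir-141 KO) and 0.24 (ZG16B in the double KO) at aligned rows. In that list ZG16B had 0.18, 0.81 and 0.10, and AGR2, a protein disulfide isomerase needed for mucins, had 0.30, -0.05 and -0.13. Of the secretory pathway machinery 24 of 26 listed genes were measured and 0 were past 1, with ratios between -0.84 (SEC24D, a coat protein, in the mir-200c KO) and 0.44 (SEC23A in the double KO).

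Of 11 other measured apocrine genes (12 of 23), 1 was above 1 and 1 below -1 in the mir-141 KO (1.15% of all entries past 1 either way), 0 above and 1 below in the mir-200c KO (2.76%), and 2 above and 2 below in the double KO (2.27%). APOD, a lipocalin of apocrine cysts, had -1.67, -1.89 and -1.70 in the mir-141 KO, the mir-200c KO and the double KO of set 1 and -0.34, -2.12 and -3.83 at its aligned row of set 2, the opposite direction from PIP in both sets. CYP4Z1, a cytochrome P450 of breast tissue, had 1.17, 1.00 and 1.21 in set 1 and 1.24, 1.24 and 1.36 at the aligned row, high in all 6 clones. SCGB2A2 (mammaglobin) had -0.10, 0.33 and -1.62 in set 1, low in the double KO alone, and SERHL2 had 0.69, 0.76 and 1.08.

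Among 14 other S100 and epithelial defence genes (15 of 26 measured), 0 were past 1 in the mir-141 KO (1.15% of all entries), 2 were above and 1 below in the mir-200c KO (2.76%), and 2 were above in the double KO (2.27%). LCN2, the iron-scavenging lipocalin of mucosal defence, had 0.64, 1.53 and 2.48 in set 1 and 1.72, 1.38 and 2.79 at its aligned row, so it too was highest in the double KO of both sets. IVL, the cornified envelope protein involucrin, had 0.70, 1.30 and 1.37 in set 1. The gene below -1 in the mir-200c KO was S100A1, with 0.55, -1.18 and -0.45 in set 1. The calgranulin genes S100A8 and S100A9 lie 66.6 kb and 96.7 kb from S100A7. S100A8 had 0.35, -0.65 and 0.65 in the mir-141 KO, the mir-200c KO and the double KO of set 1, and S100A9 had 0.34, -0.68 and 0.23, with the sign of S100A7 in each clone and smaller ratios in the clones lacking mir-141. At aligned rows S100A8 had 0.77, 0.12 and 1.45 and S100A9 0.48, 0.13 and 0.82, in the same order of clones as S100A7. The nearest measured genes on the other side of S100A7 did not share all of its signs. In set 1 S100A6 (73.9 kb away) had 0.03, -0.16 and -0.13, and S100A5 (76.4 kb) had -0.32, -1.55 and -0.51. Their aligned rows had -0.01, -0.40 and -0.32 (S100A6) and -0.29, -0.31 and -0.57 (S100A5). Of 5 other acute phase genes (7 of 21 measured), 2 were above 1, both in the double KO (2.27% of all entries past 1 either way), where SERPINA3 (antichymotrypsin) had 1.09 and SAA1 (serum amyloid A) 1.04. In the mir-141 KO of set 1 LRG1 had -0.78, CFB -0.74, SAA1 -0.19, SERPINA3 -0.002 and HPX 0.34. ORM1 and ORM2 were below wild type in both of these clones. OLFM4 was the only measured gene of 15 olfactomedin and crypt genes.

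Of 17 genes for glycoprotein hormones and their regulators 6 were measured, and no beta subunit was among them. GATA2, a factor known to drive CGA in pituitary and placenta, had -2.64, -4.09 and -3.28 in set 1, low in the 2 clones in which CGA was high as well as in the mir-200c KO. Its aligned row had 0.17, -4.10 and 0.12. CREB1, which binds the response element printed above, had 0.12, 0.22 and 0.05 in set 1.

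**Figure D4:**
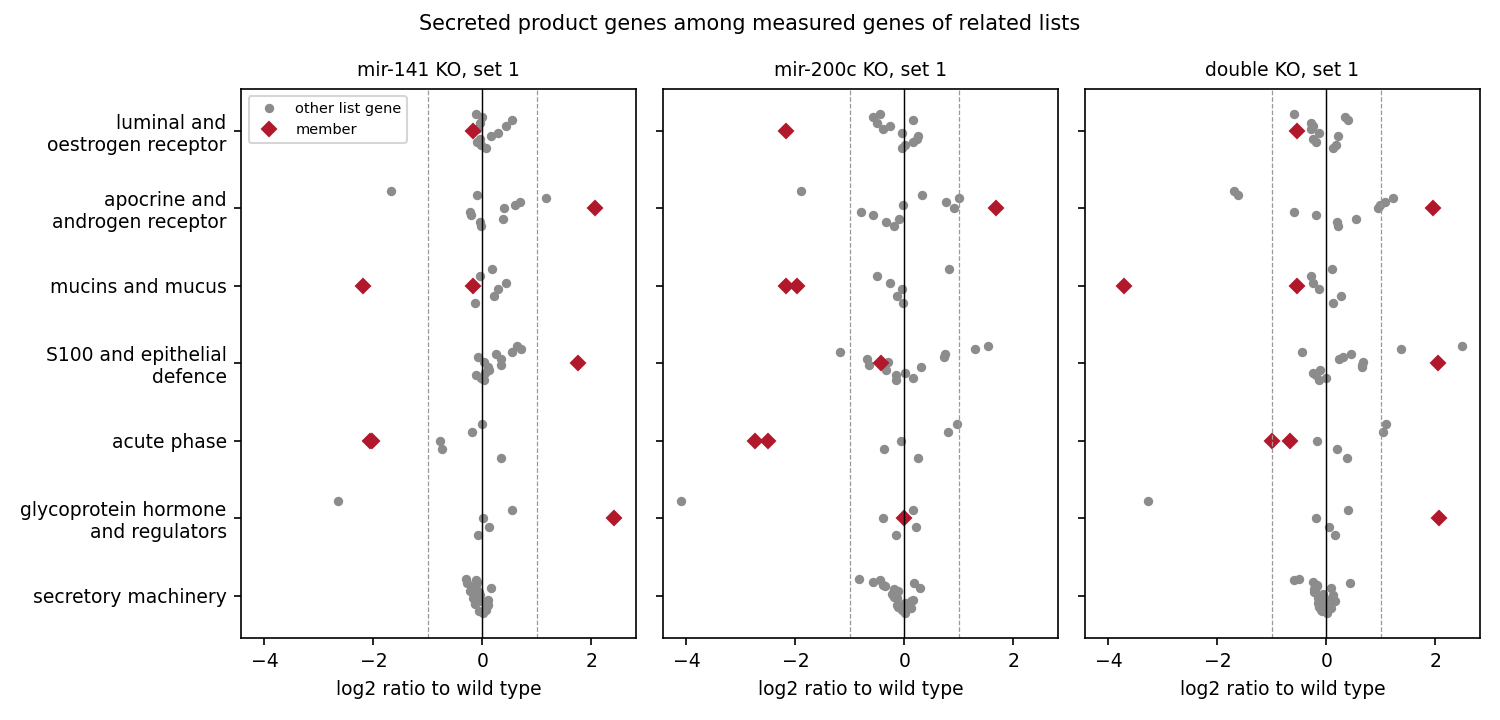
Log2 ratio to wild type in the mir-141 KO, the mir-200c KO and the double KO of set 1 (horizontal axes) for measured genes of 7 related lists (rows), with the 8 genes as red diamonds and other list genes as grey circles; dashed lines mark 1 and -1. All 24 secretory machinery genes lie inside the dashed lines, and apocrine genes lie on both sides of them.

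Markers of the line were present, with all 8 measured (ERBB2, GRB7, EPCAM, GATA3, FOXA1 and keratins) between -0.39 and 0.54 in the clones of set 1. Ratios do not show whether a marker is high or low in level. Of fibroblast, blood, endothelial and hepatocyte markers, 1 of 7, 3 of 7, 1 of 4 and 0 of 7 were measured. LCP1, a leukocyte actin bundler, had 1.05 in the mir-200c KO and -0.44 in the double KO of set 1. The other measured blood markers, CORO1A and CD68, had -0.54 and -0.48 in that mir-200c KO. The endothelial cadherin CDH5 had 1.34 in the double KO of set 1, where OLFM4, PIP, S100A7 and CGA were high. At its aligned row of set 2 (probability 0.965) CDH5 had -0.29 in the double KO. The part of other cells in these results was not tested.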

How the data were processed

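mRNA was measured in 8 libraries of SK-BR-3 cells, 1 per group in each of 2 sets. The values deposited by the authors are log2 ratios of clone to wild type of the same set, per the file headers. Per the labels' protocols, TRIzol RNA was treated with DNase I, selected on oligo(dT) beads, fragmented and read on a HiSeq instrument. TopHat2 and GRCh37.p10 are named in the submitters' processing notes, while the counting, scaling and filtering of reads are not given in the sources used here. Depth is unknown, so no interval that needs it is given and no filter on level was possible. The table held 0 columns from outside the series.

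The 8 genes and all lists were chosen with earlier results of these data known. All 8 are named. Each list names up to 4 other genes with the largest set 1 ratio in any clone, and each member its 3 nearest entries. Chromosome neighbours, MUC1 and HPX were named after their values were seen. Each wild type was set to 0 and limma 3.58.1 (R 4.3.3) fitted additive models of both losses over all 9245 entries, with 1 residual degree of freedom for set 2 and 4 for both sets, adjusted by Benjamini and Hochberg. The set is named in the labels and pairs the libraries, so it is the block. The reading of set 2 as listed was the planned one, although by the measures above those ratios stand some rows away from their symbols. The row alignment was chosen after seeing the data (band of 60 rows each way, gap probability 0.02, extension 0.5, 8 rounds). Alternatives were median centring, robust moderation, no block, leaving out each library, other thresholds of 0.5 and 1.5, and gap probabilities of 0.005 and 0.05. The fit with no block used the ratios of the 6 clones with wild type fixed at 0 and no set terms. It treated ratios that share a wild type as independent, so more than the block changed. Gene positions are from GENCODE 29 (GRCh38), matched for 9011 entries, and sequences from RefSeq tables. Promoter entries were matched for 5 of the 8 genes.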

Additional observations from a re-analysis of the deposited data

Results flagged for a closer look

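PIP stood above wild type in every clone of set 1 and below it in every clone of set 2 as listed, and the mean over set 1 exceeded that over set 2 by 2.11 on the log2 scale. This difference was not tested. By the row order described above, the listed ratios of set 2 stand some rows away from their symbols. At the aligned row of set 2 for PIP (offset of -6 rows, probability 0.966) the 3 clones were above wild type as in set 1.

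For ORM1 the effect of each loss had opposite signs in the 2 backgrounds of set 1. The change in the other knockout exceeded that in wild type by 3.90 for loss of mir-141 and, by construction, by 3.90 for loss of mir-200c. For ORM2 the same difference was 3.77 for both losses. These differences were not tested, and the 2 genes share reads. At the aligned rows the double KO exceeded the sum of the single knockouts by 2.89 for ORM1 and by 2.78 for ORM2.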

How the results depend on the processing

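Limits come first from the row order of set 2. Ratios of 8 genes in 3 clones of set 1 gave 18 past 1 in size, the aligned rows of set 2 gave 17 and the listed rows gave 0. In the mir-141 KO, the mir-200c KO and the double KO, 1.15%, 2.76% and 2.27% of all entries were past 1 in set 1. The shares over all rows of set 2, whichever symbol they go with, were 2.48%, 1.77% and 3.34%. Genes that followed loss of mir-141 numbered 4 in set 1, 1 at the aligned rows and 0 as listed. Over all rows, 0.27% followed it in set 1 and 0.411% in set 2. For loss of mir-200c they numbered 2 in set 1 (OLFM4 and MUC5B), 2 at the aligned rows (OLFM4 and PIP) and 0 as listed. Over all rows, 0.206% followed that loss in set 1 and 0.303% in set 2. Among ratios past 1 in set 1, signs turned as listed for PIP (-0.21, -0.16 and -0.26 in the mir-141 KO, the mir-200c KO and the double KO), MUC5B (0.25) and OLFM4 (-0.085) in the mir-200c KO, and at the aligned rows in the mir-141 KO for OLFM4 (-0.22) and CGA (-0.082). Smaller ratios that turned were S100A7 in the mir-200c KO (0.05 listed and 0.47 aligned), CGA in the mir-200c KO (0.31 and 0.11) and TFF1 in the double KO (0.46 aligned). In the set 2 model, effects at aligned rows had the other sign than as listed for PIP (1.55 for mir-141 and 2.48 for mir-200c), CGA for mir-141 (-0.085), and TFF1 (0.55), MUC5B (-1.71) and OLFM4 (6.16) for mir-200c. The aligned effect of mir-200c on ORM2 was near 0 and turned to 0.004275 with median centring. The cause was not tested.

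By the row order above, reading both sets as listed joins rows that mostly belong to different entries. Over both sets limma then called 0 entries with the block, 0 with no replicate block and 0 without any 1 library. With aligned rows it called 2 (probability 0.9) and 2 (0.5) for mir-141, 1 and 1 without the block, and for mir-200c 30 and 30, 22 and 18 without the block. Entries aligned at 0.9 numbered 4712, and 2791 with a gap probability of 0.05. Of 331 other settings over all results, 40 had another sign than the value as reported, 20 of them when a library was left out. At aligned rows of set 2 without 1 library, the effect of mir-141 turned to as much as 2.17 for TFF1, -0.22 for OLFM4, 0.0069 for ORM1 and 0.35 for ORM2, and that of mir-200c to -1.71 for TFF1, 1.37 for ORM1 and 1.39 for ORM2. Leaving out a library of set 2 left no residual degrees of freedom there, so it gave values and no test. Depth is unknown and limits every ratio.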
